A study of Mus musculus with 6 samples.

Results

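S100 genes encode small calcium-binding proteins. The S100 genes followed here were S100a1, S100a4, S100a6, S100a8, S100a9, S100a10, S100a11 and S100a13, named by symbol and required to be listed in all 6 single-cell count matrices of the series. They make up 8 of the 31053 mouse genes listed, and 9 other S100 genes were listed beside them. All 8 members had counts in each of the 6 libraries.

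Most S100 proteins pair up and, on binding calcium, expose a surface that grips other proteins. S100a8 and S100a9 together form calprotectin, a main cytosolic protein of neutrophils that also occurs in monocytes and, when released, signals danger through Tlr4 and Ager. S100a4 binds non-muscle myosin and is linked to cell motility, S100a6 is found in growing and differentiating cells, and S100a10 and S100a11 are known as partners of annexins at membranes. S100a13 takes part in the release of Fgf1 and Il1a without a signal peptide, and S100a1 is best known from muscle, where it regulates calcium release.

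The study asked how vitamin D3 and loss of Ndrg2 act on dendritic cells (DCs) and how wounds respond to hydrogels that carry edited DCs. DCs were grown with GM-CSF from bone marrow of wild-type C57BL/6J mice, and the 3 culture libraries were untreated DCs, VD3 DCs and Ndrg2-KO DCs. VD3 DCs received 1e-06 M 1,25-dihydroxyvitamin D3 for 24 hours from culture day 7. Ndrg2-KO DCs were nucleofected with Cas9 and guide RNAs against Ndrg2, a mixed pool of edited cells and no single clone. The untreated culture is not described as nucleofected, so effects of Ndrg2 loss, of nucleofection and of any handling tied to it cannot be told apart. The 3 wound libraries came from splinted full-thickness skin wounds of wild-type C57BL/6J mice aged 6 weeks, covered with a pullulan-collagen hydrogel and taken on day 10, with 5 mice per group. The hydrogels held control DCs, Ndrg2-KO DCs or no cells (blank hydrogel), and the groups are also called control, Ndrg2-KO and blank wounds. The labels call the control DCs untreated, whereas the paper describes control DCs nucleofected with non-targeting guides. Hydrogel, host and transplanted cells were not separated in the wound libraries.

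Transcripts were counted as unique molecular identifiers (UMIs) by droplet sequencing of 3′ ends, with 1 library per condition. No spread between replicates can be given, and the 95% intervals below cover counting error only. Kept cells had at least 300 detected genes, under 100000 UMIs and under 10% mitochondrial UMIs. Untreated DCs gave 7257 cells with 132574308 UMIs, VD3 DCs 8825 cells with 116461484 UMIs and Ndrg2-KO DCs 7969 cells with 143627482 UMIs. Control DC wounds gave 1948 cells with 29675507 UMIs, Ndrg2-KO DC wounds 5681 cells with 49240341 UMIs and blank hydrogel wounds 3403 cells with 34905741 UMIs. Median UMIs per cell were 15804, 12089 and 16316 in the cultures and 10795, 4415 and 5603 in the wounds, in the same order. Any pair of libraries shared between 1 and 19 cell barcodes. Levels are given in CPM, the UMIs of a gene over all UMIs of the library or class, scaled so that 1% of the UMIs is 10000 CPM. One transcript end gives 1 count whatever the transcript's length, and CPM of different genes still depend on how well each 3′ end was captured.

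The labels were compared with marker genes. Ndrg2 stood at 4.62 CPM in untreated DCs, 1.42 in VD3 DCs and 0.88 in Ndrg2-KO DCs. Ndrg2 was thus scarce in the untreated culture and lower in both others. Cd74, the invariant chain of class II antigen presentation, stood at 6743, 5811 and 4179.5 CPM in untreated, VD3 and Ndrg2-KO DCs. Itgax, which encodes the DC integrin CD11c, stood at 146, 77.8 and 263 CPM. The series text also speaks of sorted GFP-positive cells, yet the 6 libraries held 1 eGFP UMI in all, in Ndrg2-KO DC wounds. Cells were clustered without the S100 genes and Ndrg2 among the variable genes, and a cluster was called "-like" after a fixed marker list when at least 3 of its markers passed. A culture cluster rich in Elane, Prtn3, Ctsg, Camp and Ngp, genes of early granulocyte granules, also passed cycling markers and kept its number, cluster 8. Culture cluster 12 was left unnamed as it passed 1 marker of its best list. Wound cluster 6 passed T cell markers, but was left unnamed as its top 10 genes held 3 mast cell and 2 T cell markers. Most named culture clusters held cells of mainly 1 library, so class and culture are closely tied.

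Across the libraries, the calprotectin pair varied most. S100a8 stood at 3044 CPM (3035 to 3054) in untreated DCs, 3561 CPM in VD3 DCs and 216 CPM (213 to 218) in Ndrg2-KO DCs. S100a8 stood at 3427 CPM in control DC wounds, 11144 CPM in Ndrg2-KO DC wounds and 8806 CPM in blank hydrogel wounds. Ndrg2-KO DCs were thus the low culture and control DC wounds the low wound library. S100a9 followed the same order, with 2031, 2337 and 136 CPM in untreated, VD3 and Ndrg2-KO DCs. In wounds, S100a9 reached 4279 CPM with control DCs, 13618 CPM with Ndrg2-KO DCs and 10702 CPM with blank hydrogel. Counting intervals on this many UMIs are narrow. Those of the pair did not overlap between libraries, and neither did those of S100a4, S100a6 and S100a11. The share of all genes without overlap was not computed.

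S100a4 and S100a6, the members tied to motility and growth, were highest among the cultures in untreated DCs. S100a4 stood at 1521 CPM (1515 to 1528) in untreated DCs, 382 CPM (378 to 385) in VD3 DCs and 756 CPM in Ndrg2-KO DCs. In control DC, Ndrg2-KO DC and blank hydrogel wounds S100a4 stood at 306, 553 and 696 CPM. S100a6 measured 1860.0, 748 and 1404 CPM in untreated, VD3 and Ndrg2-KO DCs. In wounds S100a6 ran from 1773 CPM with control DCs to 2492 CPM with blank hydrogel and 3153 CPM with Ndrg2-KO DCs. VD3 DCs were the low culture for both genes, and control DC wounds the low wound library.

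The annexin partners varied less. S100a10 stood at 1164, 787 and 1042 CPM in untreated, VD3 and Ndrg2-KO DCs. In wounds S100a10 stood at 867 CPM (856 to 878) with control DCs and 862 CPM (853 to 869.8) with Ndrg2-KO DCs, which overlap, and at 777 CPM with blank hydrogel. S100a11 stood at 1299, 1092 and 1466 CPM in the 3 cultures and at 1013, 1835 and 1661 CPM in control DC, Ndrg2-KO DC and blank hydrogel wounds. S100a11 thus shared with S100a6 its low value in control DC wounds, whereas S100a10 did not.

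S100a1 and S100a13 were the scarcest members in most libraries. S100a1 stood at 164, 160.3 and 303 CPM in untreated, VD3 and Ndrg2-KO DCs, and the knockout culture stood apart. In wounds S100a1 stood at 36.8 CPM (34.6 to 39.0) with control DCs, 46.2 CPM with Ndrg2-KO DCs and 39.6 CPM (37.6 to 41.8) with blank hydrogel, the outer pair overlapping. S100a13 stayed between 217 and 267 CPM in cultures and between 160.3 and 204 CPM in wounds. Summed, the 8 members took 1.13%, 0.933% and 0.557% of UMIs in untreated, VD3 and Ndrg2-KO DCs and 1.19%, 3.14% and 2.53% in control DC, Ndrg2-KO DC and blank hydrogel wounds.

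**Figure D1:**
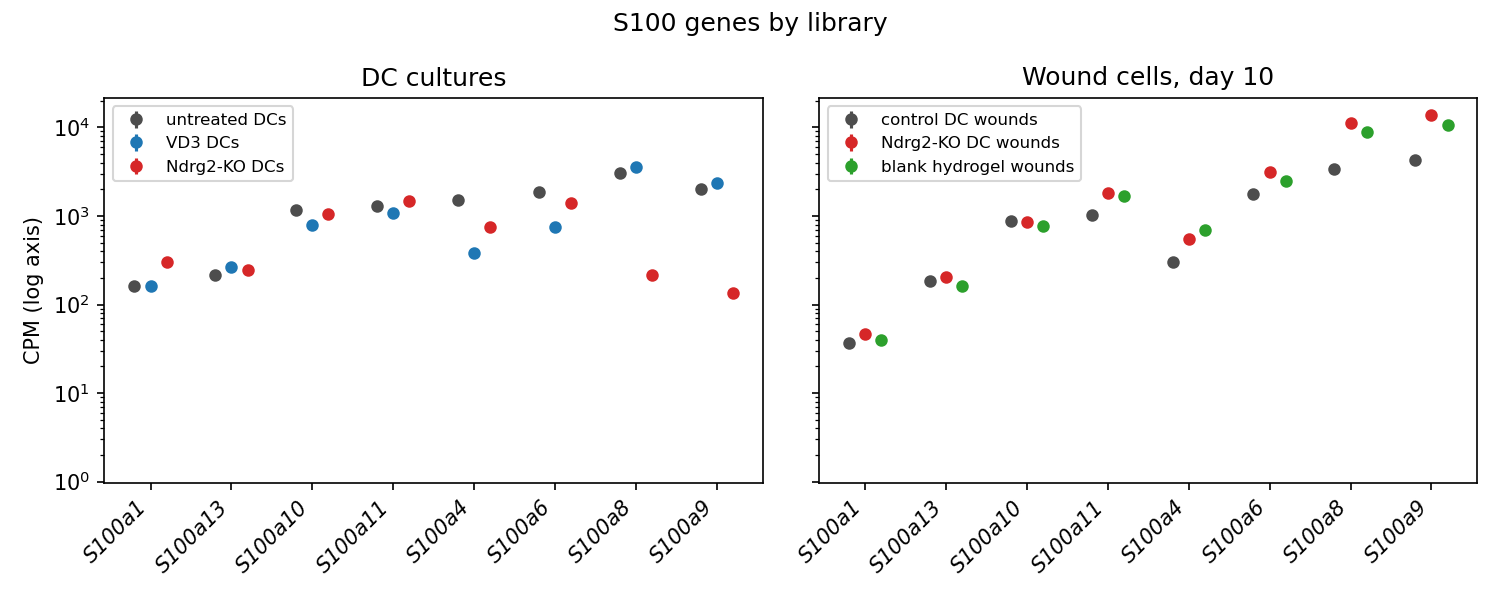
Level of each of the 8 S100 genes (CPM, log axis) in the 6 libraries, with exact Poisson 95% intervals, most of them smaller than the points. S100a8 and S100a9 dip in Ndrg2-KO DCs, at 216 and 136 CPM, and peak in Ndrg2-KO DC wounds, at 11144 and 13618 CPM.

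Shares of cells with a UMI were compared after each cell was thinned to 2000 UMIs in cultures or 1000 UMIs in wounds, with exact Clopper-Pearson intervals. S100a8 was found in 26.7% of untreated DCs (25.6 to 27.7%), 23.0% of VD3 DCs and 8.67% of Ndrg2-KO DCs. In wounds the S100a8 share was 26.8% with control DCs, 60.9% with Ndrg2-KO DCs and 51.4% with blank hydrogel. S100a4 was detected in 84.2%, 45.7% and 68.9% of untreated, VD3 and Ndrg2-KO DCs, the same order as its CPM. S100a6 and S100a11 were found in at least 63.5% and 82.3% of cells in each culture. After thinning, S100a6 and S100a11 were thus counted in most cells of each culture, and S100a8 in a minority. At full depth S100a8 was found in 54.2%, 43.5% and 31.6% of untreated, VD3 and Ndrg2-KO DCs.

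S100a4 and S100a6 were lower in VD3 DCs, while S100a8 and S100a9 stayed within 2-fold. Genes with at least 200 UMIs in at least 1 of the libraries compared were tested, all 8 members passed, and a difference of at least 2-fold was called. S100a4 was 3.99-fold lower in VD3 than in untreated DCs, a log2 ratio of -1.99 (-2.01 to -1.98). S100a6 gave -1.31 (-1.33 to -1.30), which became -0.91 with cells under 5% mitochondrial UMIs and was then no longer called. With 2 of 8 members lower and 0 higher, the background among 10935 tested genes was 6.02% lower and 2.99% higher. The other 6 members lay between -0.57 for S100a10 and 0.30 for S100a13, with S100a8 at 0.23 and S100a9 at 0.20. S100a11, at -0.25, reached 0.08 under another setting, so its direction was not stable. The median log2 ratio was -0.14 over the members and -0.07 over all genes, counting those that both libraries held with 100 UMIs or more.

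In Ndrg2-KO against untreated DCs the calprotectin pair fell far more than any other member. S100a8 was 14.1-fold lower, a log2 ratio of -3.82 (-3.83 to -3.80), and S100a9 was 14.9-fold lower at -3.90 (-3.92 to -3.88). Among cells under 5% mitochondrial UMIs the same ratios were -2.93 and -3.11. S100a4 was called lower at -1.01, at the edge of the threshold, and gave -0.93 with median-ratio scaling. Thus 3 of 8 members were lower and 0 higher, beside 6.9% of 11243 tested genes lower and 8.26% higher. S100a1 had the highest ratio of the members, 0.89, and S100a6 stood at -0.41. S100a10, S100a11 and S100a13 gave -0.16, 0.17 and 0.19, and S100a11 reached -0.10 under another setting. The median was -0.28 over the members and -0.06 over all genes.

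Ndrg2-KO DCs compared with VD3 DCs, which share neither treatment, again had the calprotectin pair lower and S100a4 near a 2-fold excess. S100a8 had a log2 ratio of -4.04 and S100a9 one of -4.10, 16.5-fold and 17.2-fold lower. S100a4 gave 0.99, just short of the call, and 1.06 as a mean over cells. S100a1 gave 0.92, and S100a6 gave 0.91, with a range from 0.49 to 1.10 over the alternatives. The 1.10 came without shallow clusters, an alternative chosen after seeing the data. Outside neutrophil-like cells S100a6 stood at 1401 CPM in Ndrg2-KO and 659 CPM in VD3 DCs, also past 2-fold. That makes 2 of 8 members lower and 0 higher, beside 6.69% lower and 11.3% higher among 11185 tested genes. The median was 0.41 over the members and -0.01 over all genes. The 3 culture comparisons reuse the same libraries.

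Wounds that received Ndrg2-KO DCs held more S100a8 and S100a9 RNA than wounds with control DCs. S100a8 was 3.25-fold higher, a log2 ratio of 1.70 (1.69 to 1.71), and S100a9 was 3.18-fold higher at 1.67 (1.66 to 1.68). As a mean over cells, which weights each cell alike, the same ratios were 0.96 and 0.94, and without neutrophil-like cells they were 2.81 and 2.86. Hence 2 of 8 members were higher and 0 lower, beside 3.83% of 9738 tested genes higher and 3.97% lower. S100a4, S100a6 and S100a11 lay just under the call at 0.86, 0.83 and 0.86, and S100a4 ranged from 0.29 as a mean over cells to 1.09 without neutrophil-like cells. S100a1, S100a10 and S100a13 gave 0.33, -0.01 and 0.16, and each changed sign under another setting. The median was 0.84 over the members and -0.14 over all genes, so ratios in this comparison sit on a small downward shift.

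Blank hydrogel wounds, which received no DCs, were nearer in level to Ndrg2-KO DC wounds than to control DC wounds for S100a4, S100a6, S100a8, S100a9 and S100a11. S100a8 had a log2 ratio of 1.36 over control DC wounds, S100a9 one of 1.32 and S100a4 one of 1.19 (1.15 to 1.22). As means over cells these were 0.78, 0.74 and 0.63, and none was then called. The 3 of 8 members higher and 0 lower stood beside 2.97% of 9239 tested genes higher and 2.65% lower. S100a11 gave 0.71 and S100a6 gave 0.49. S100a1, S100a10 and S100a13 gave 0.11, -0.16 and -0.19, and the first pair changed sign under another setting. The median was 0.60 over the members and -0.03 over all genes. Both wound comparisons share the control DC wounds, so a library effect of that sample and an effect of control DCs cannot be told apart.

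In wounds, the members split by cell class into a neutrophil pair, a pair that neutrophil-like cells also carry, and genes at low levels in those cells. Over 39 groups of at least 50 cells, each a class in a library, S100a8 ran from 10.3 CPM in wound cluster 6 with control DCs to 57844 CPM in neutrophil-like cells of the same library. S100a9 ran from 6.41 CPM in cDC1-like untreated cells to 72798 CPM in neutrophil-like cells of control DC wounds. S100a6 ran from 372 to 4839.5 CPM, a 13-fold range, and S100a11 from 288 to 5168 CPM, a 17.9-fold range. Both of these peaked in wound neutrophil-like cells. S100a4 and S100a10 were lowest in the erythroid-like cells of Ndrg2-KO DC wounds, at 2.04 and 14.3 CPM, and S100a13 was lowest there too at 22.4 CPM. Under other clusterings S100a4 and S100a10 reached 66.1 and 79.9 CPM in that class, above wound neutrophil-like cells. The same class held S100a8 at 18568 CPM and S100a9 at 23762 CPM. No S100a1 UMI was found in that class, which allows up to 7.51 CPM.

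**Figure D2:**
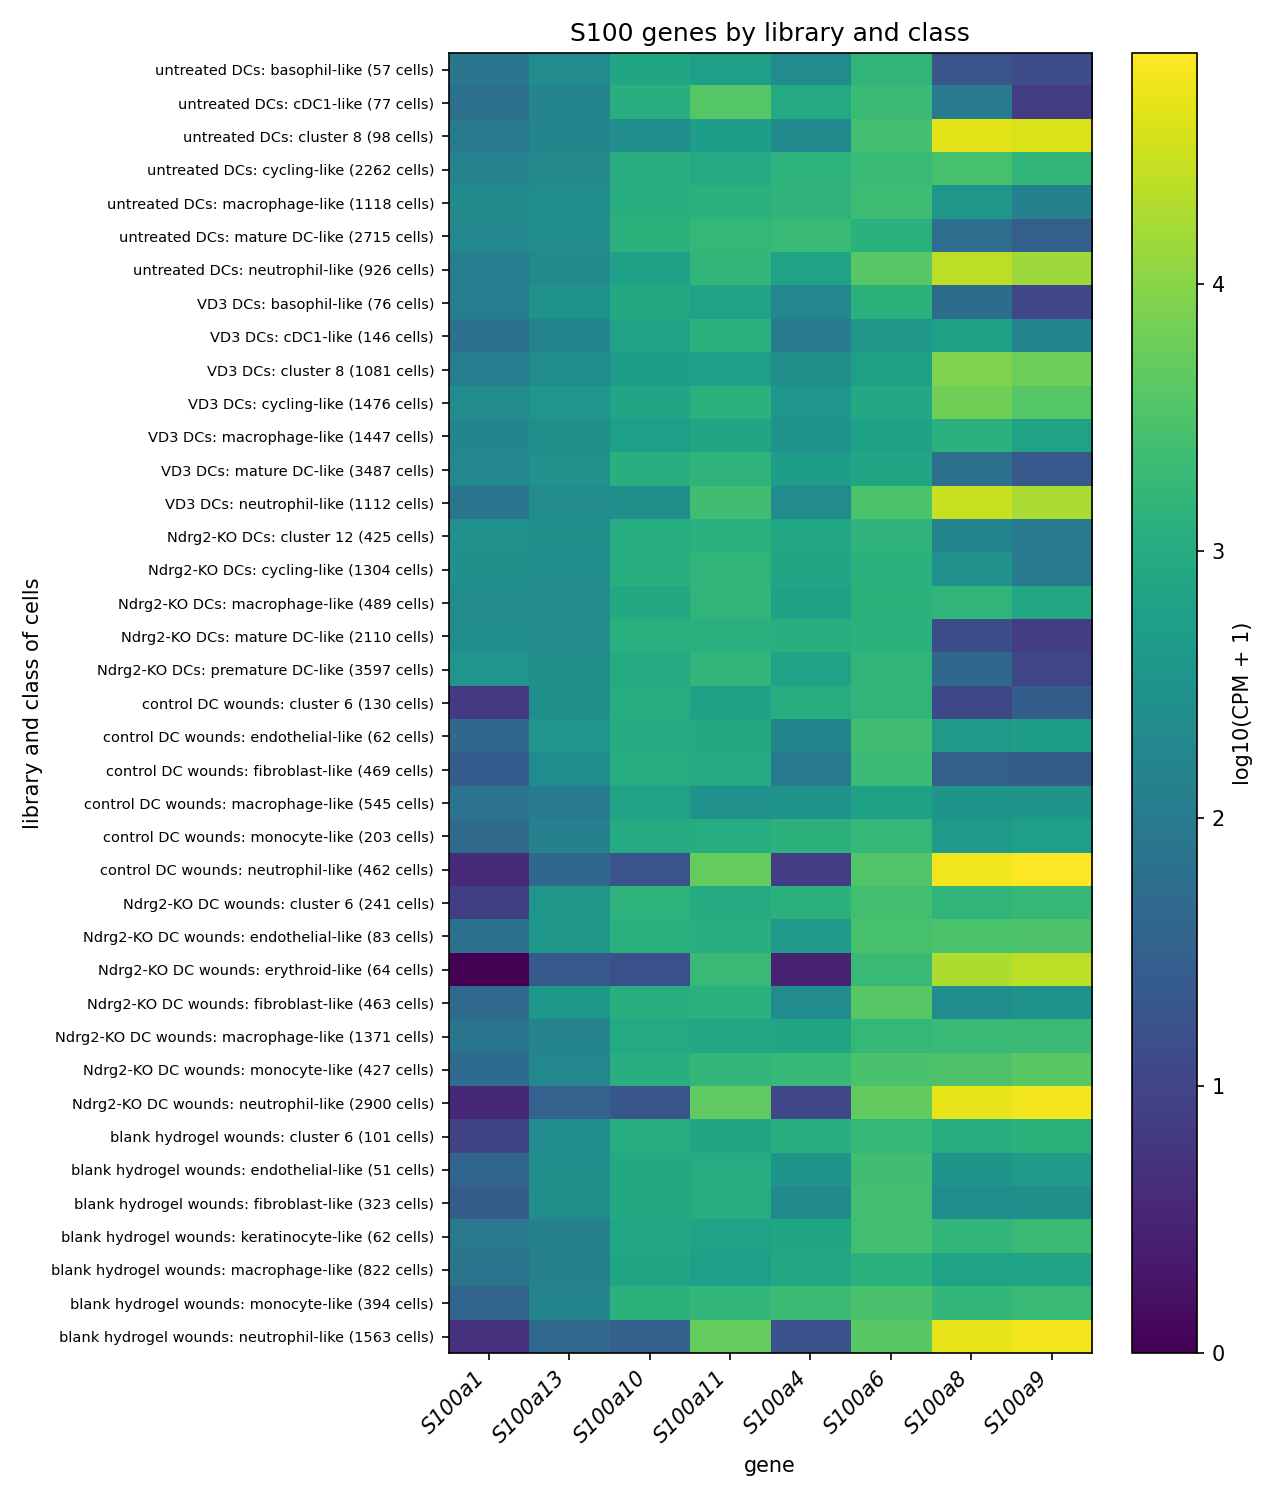
Level of each S100 gene, as log10 of CPM plus 1, in 39 groups of at least 50 cells, each a cell class in a library. S100a8 and S100a9 are highest in wound neutrophil-like cells, where S100a1, S100a4 and S100a10 are nearly absent.

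Wound neutrophil-like cells held S100a6, S100a8, S100a9 and S100a11 in quantity in all 3 wound libraries. S100a8 stood at 57844, 49322 and 48394 CPM and S100a9 at 72798, 60786 and 59158 CPM in control, Ndrg2-KO and blank wounds. S100a11 stood at 5097, 4776 and 5168 CPM and S100a6 at 3550.3, 4839.5 and 4156 CPM. S100a4 reached 6.70, 9.82 and 15.6 CPM, S100a10 17.7, 19.0 and 30.2 CPM and S100a1 3.05, 2.56 and 3.90 CPM. S100a1, S100a4 and S100a10 were below the UMI minimum in this class and were not tested. Within this class, 0 of 5 tested members passed 2-fold in Ndrg2-KO DC wounds against control DC wounds, beside 5.29% of tested genes either way. S100a8 gave -0.23 and S100a9 gave -0.26 there, both slightly lower and not higher. The class joined clusters 0 and 1, and cluster 1 gave 104 of 462 cells in control, 1237 of 2900 in Ndrg2-KO and 383 of 1563 in blank wounds. Ratios within the class therefore compare mixes of clusters as well. Against the same control, blank hydrogel wounds had 0 of 5 tested members past 2-fold, beside 2.97% of tested genes. The ratios of S100a4, 1.22 (0.31 to 2.27), and S100a10, 0.77 (0.20 to 1.39), rest on few UMIs.

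The share of such cells differed between the wound libraries. Neutrophil-like cells were 23.7%, 51.0% and 45.9% of cells in control, Ndrg2-KO and blank wounds. They carried 93.4%, 87.9% and 92.9% of all S100a8 UMIs and 94.1%, 88.6% and 93.5% of S100a9 UMIs. They also carried 27.8%, 51.7% and 52.6% of S100a11 UMIs and 11.1%, 30.5% and 28.2% of S100a6 UMIs. Outside this class S100a8 stood at 239.7 CPM with control DCs, 1686 CPM with Ndrg2-KO DCs and 749.9 CPM with blank hydrogel, and S100a9 at 266, 1934 and 842 CPM. The library order therefore held both for the share of neutrophil-like cells and for the S100a8 and S100a9 found outside them.

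In cultures the neutrophil-like class held less of the pair. It made up 12.8% of untreated DCs with 926 cells, 12.6% of VD3 DCs with 1112 cells and 0.439% of Ndrg2-KO DCs with 35 cells. In untreated and VD3 DCs, S100a8 of this class stood at 23374 and 28615 CPM and S100a9 at 14084 and 17331 CPM. The class held 27.2%, 30.0% and 12.9% of the S100a8 UMIs of untreated, VD3 and Ndrg2-KO DCs. Unlike wound neutrophil-like cells, those of the untreated culture still had S100a4 at 664 CPM and S100a10 at 592 CPM. Their whole library held these genes at 1521 and 1164 CPM, and the source of the UMIs in the class was not tested. In the neutrophil-like class S100a4 fell by 1.62 and S100a10 by 1.27 on the log2 scale with vitamin D3. These were 2 of 8 members past 2-fold, beside 2.97% of tested genes. S100a8 at 0.29 and S100a9 at 0.30 were not called in these cells.

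Cluster 8, the culture cells with early granule genes, was a further source, beside cycling-like cells, which held 39.9% of the S100a8 and 35.3% of the S100a9 UMIs of untreated DCs. In untreated DCs its 98 cells held S100a8 at 46462 CPM and S100a9 at 39736 CPM, and with them 29.9% and 38.4% of all UMIs of these genes. In VD3 DCs it counted 1081 cells, and S100a8 stood at 8340.2 CPM and S100a9 at 6036 CPM, log2 ratios of -2.48 and -2.72, while S100a10 gave 1.09 (0.97 to 1.21). Cluster 8 held 55.0% of S100a8 and 60.6% of S100a9 UMIs of the VD3 culture. The median sum of the pair per cell was 2509 UMIs in its untreated and 2 UMIs in its VD3 cells, where the 5% of cells with most held 48.4% of the sum. Ngp and Camp gave 5821 and 1628 UMIs in the 98 untreated cells, and 7046 and 1442 UMIs in the 1081 VD3 cells. The CPM values of cluster 8 thus compare different mixes of cells. Ndrg2-KO DCs had 7 cells in cluster 8. That culture thus had few cells in both granulocyte-type groups. Its 1304 cycling-like cells, mostly of another cluster than the untreated ones, held S100a8 at 282 CPM against 2833 CPM. Outside neutrophil-like cells S100a8 still stood at 2297, 2589.7 and 188 CPM in untreated, VD3 and Ndrg2-KO DCs.

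Mature DC-like cells carried little of the pair. The class joined mainly cluster 2 in untreated, cluster 1 in VD3 and cluster 5 in Ndrg2-KO DCs, each of which passed Ccr7, Ccl22 and Il4i1, and a smaller cluster that passed Fscn1 but neither Ccr7 nor Ccl22. S100a8 stood at 56.7, 58.7 and 13.6 CPM and S100a9 at 29.0, 21.5 and 6.59 CPM in untreated, VD3 and Ndrg2-KO DCs. S100a4 was high in this class in untreated DCs, at 1993 CPM, and stood at 531 CPM in VD3 DCs and 1112 CPM in Ndrg2-KO DCs. S100a10 stood at 1316, 1118 and 1201 CPM and S100a11 at 1749.7, 1451 and 1228 CPM. Among these more abundant members, S100a4 differed most between the mature cells of the 3 cultures. Against untreated cells 1 of 8 members passed 2-fold with vitamin D3, S100a4 at -1.91, beside 5.36% of tested genes either way, and S100a6 gave -0.84. In Ndrg2-KO cells 2 of 8 members passed, S100a8 at -2.06 and S100a9 at -2.14, beside 10.2% of tested genes. With 30 principal components the Ndrg2-KO class held S100a8 at 71.8 CPM and S100a9 at 42.1 CPM, so that result depended on where clusters were drawn. Within-class counts of members past 2-fold were limited to named classes with at least 200 cells in both libraries, a minimum chosen after seeing the data. Ratios of smaller classes and of cluster 8 are given without such counts.

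In macrophage-like culture cells, S100a4 and S100a6 were lower and the calprotectin pair higher with vitamin D3. The class joined different clusters, cluster 9 for untreated, cluster 7 for VD3 and cluster 11 for Ndrg2-KO DCs, which passed different macrophage markers, so its ratios compare clusters as well as cultures. In untreated and VD3 cells S100a4 stood at 1443 and 297 CPM (-2.28), and S100a6 at 2215 and 606 CPM (-1.87). S100a10 fell by 1.02 on the log2 scale. S100a8 stood at 372 and 1289 CPM (1.79), and S100a9 at 139 and 633 CPM (2.19). The median sum of the pair was 1 UMI per cell in both cultures, and the 5% of cells with most held 83.9% and 85.2% of it. These 5 of 8 members stood beside 11.4% of tested genes past 2-fold either way. In Ndrg2-KO cells of this class 3 of 8 passed beside 11% of tested genes, S100a4 at -1.25, S100a8 at 2.07 and S100a9 at 2.51. S100a8 in these 489 cells stood at 1559 CPM, yet at 38.8 CPM in the class found when the library was clustered alone. In the untreated class S100a8 fell to 186 CPM without the highest 6% of doublet scores.

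Cycling-like cells were compared next, though their clusters and depth differed widely. The class was mainly cluster 6 in untreated DCs, with 1699 of 2262 cells and 561 more in cluster 3. It was cluster 3 in VD3 DCs, with 1458 of 1476 cells, and mainly cluster 10 in Ndrg2-KO DCs, with 1067 of 1304 cells. Its ratios therefore compare clusters as well as cultures. Median UMIs per cell were 22512 in untreated, 1858 in VD3 and 22904 in Ndrg2-KO cycling-like cells. S100a8 stood at 2833, 6439 and 282 CPM and S100a9 at 1672, 3728 and 99.0 CPM. S100a4 stood at 1366, 352 and 767 CPM in the same cells. With vitamin D3, 4 of 8 members passed 2-fold, S100a4 at -1.96, S100a6 at -1.15, S100a8 at 1.18 and S100a9 at 1.16, beside 36.7% of tested genes. That background is high, and the parts of depth and cluster in it were not tested. The median sum of the pair per cell was 3 UMIs in untreated and 0 UMIs in VD3 cells of the class. In Ndrg2-KO cells 2 of 8 passed, S100a8 at -3.33 and S100a9 at -4.08, beside 12.5% of tested genes. Under other clusterings S100a8 ranged from 867 to 4941 CPM in untreated and down to 87.6 CPM in Ndrg2-KO cycling-like cells. In VD3 cells of the class S100a8 ranged from 3459 to 7909 CPM, which overlaps the untreated range. S100a9 ranged from 415 to 3094 CPM in untreated and from 2150 to 5660 CPM in VD3 cells, which overlap too.

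Premature DC-like cells, which passed Csf1r, Ccr2, Lyz2, Fn1 and Mmp12, came almost only from Ndrg2-KO DCs, with 3597 cells. They held S100a1 at 348 CPM, the highest of the 39 groups, and 58.8% of the S100a1 UMIs of their library. S100a8 was at 40.5 CPM and S100a9 at 9.36 CPM, while S100a6 stood at 1504 CPM and S100a11 at 1567 CPM. The class was thus rich in S100a1 and poor in the calprotectin pair. Of the small classes, cDC1-like cells of untreated DCs had S100a11 at 3819.8 CPM, against 1291 CPM in VD3 DCs. S100a4 in cDC1-like cells was 931 CPM in 77 untreated cells and 104 CPM in 146 VD3 cells, a log2 ratio of -3.17 (-3.39 to -2.95). Basophil-like cells of untreated and VD3 DCs had S100a8 at 18.2 and 51.2 CPM and S100a4 at 223 and 181 CPM. S100a4 was thus lower with vitamin D3 in cDC1-like, mature, macrophage-like, cycling-like and neutrophil-like cells, by 1.62 to 3.17 on the log2 scale. In basophil-like cells its ratio of -0.30 (-0.66 to 0.06) spanned 0, and in cluster 8 it was 0.31 (0.18 to 0.44).

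Monocyte-like cells had the most S100a4 among the named wound classes with at least 50 cells in each library. They passed Ly6c2, Ccr2, Plac8, Chil3 and Ms4a4c, but class II genes such as H2-Ab1 and Cd74 also stood among their top genes, so the name rests on the fixed list alone. Mature DC-like wound cells, 69 over the 3 libraries, had more S100a4, at 3194 CPM against 1815 CPM in monocyte-like cells. S100a4 in monocyte-like cells stood at 1344 CPM with control DCs, 1773 CPM with Ndrg2-KO DCs and 2133 CPM with blank hydrogel. S100a6 stood at 1724, 2895 and 2879.6 CPM and S100a11 at 1013, 1652 and 1625 CPM. S100a10 stood at 966, 1094 and 1341 CPM, close to the levels of culture DCs. Monocyte-like cells thus held the motility and annexin members in all 3 wound libraries. S100a8 was 434, 3262 and 1688 CPM, and without the highest 6% of doublet scores 20.2, 797 and 277 CPM. Against control DC wounds 2 of 8 members passed 2-fold with Ndrg2-KO DCs, S100a8 at 2.91 and S100a9 at 2.89, beside 1.82% of tested genes either way. With blank hydrogel 2 of 7 tested members passed, S100a8 at 1.96 and S100a9 at 1.76, beside 1.84% of tested genes.

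Macrophage-like cells had more members past 2-fold than the other wound classes compared between Ndrg2-KO and control DC wounds. S100a4 stood at 318, 740.2 and 857 CPM and S100a6 at 600.4, 1729 and 1293 CPM in control, Ndrg2-KO and blank wounds. S100a11 stood at 288, 771 and 560.2 CPM. The class joined clusters 2, 4 and 7, and cluster 2 gave 176 of its 545 cells in control, 746 of 1371 in Ndrg2-KO and 441 of 822 in blank wounds. Its ratios therefore compare mixes of clusters as well. With Ndrg2-KO DCs 5 of 8 members were past 2-fold, beside 3.79% of tested genes either way. They were S100a4 at 1.22, S100a6 at 1.53, S100a8 at 2.58, S100a9 at 2.70 and S100a11 at 1.42. With blank hydrogel 3 of 8 passed, S100a4 at 1.43, S100a6 at 1.11 and S100a9 at 1.08, beside 2.13% of tested genes, and S100a8 gave 0.97. Without the highest 6% of doublet scores, S100a8 of the class was 100.1, 741 and 188 CPM in place of 333, 1987 and 651 CPM. With S100 genes among the variable genes, S100a4 of the class was 156, 371 and 341 CPM and S100a11 134, 346 and 227 CPM, less than in the clusters used here.

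Fibroblast-like cells were rich in S100a6 and nearly free of the pair in control DC wounds. S100a6 stood at 2104, 3896 and 2573 CPM and S100a10 at 1023, 1182 and 901 CPM in control, Ndrg2-KO and blank wounds. S100a13 stood at 232, 382 and 249.9 CPM, with 63.7% of its UMIs in control DC wounds falling in this class. S100a8 stood at 28.7 CPM with control DCs, 231 CPM with Ndrg2-KO DCs and 228 CPM with blank hydrogel. With Ndrg2-KO DCs 3 of 8 members passed 2-fold, S100a4 at 1.26, S100a8 at 3.01 and S100a9 at 3.58, beside 3.02% of tested genes. With blank hydrogel the same 3 members passed, at 1.20, 2.99 and 3.29, beside 1.37% of tested genes. Leaving out the highest 6% of doublet scores took S100a8 in the blank hydrogel class to 109.8 CPM. Endothelial-like cells held S100a6 at 2397, 2851 and 2353 CPM and S100a8 at 419, 3048 and 329 CPM, the middle value being 1803 CPM without the highest 6% of doublet scores. Keratinocyte-like cells, found with at least 50 cells in blank hydrogel wounds, held S100a8 at 1577 CPM and S100a9 at 2078 CPM, or 724 and 947 CPM with 30 principal components. Wound cluster 6 held S100a10 at 1029, 1413 and 1167 CPM and almost no S100a1, at 5.73, 7.07 and 9.12 CPM.

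**Figure D3:**
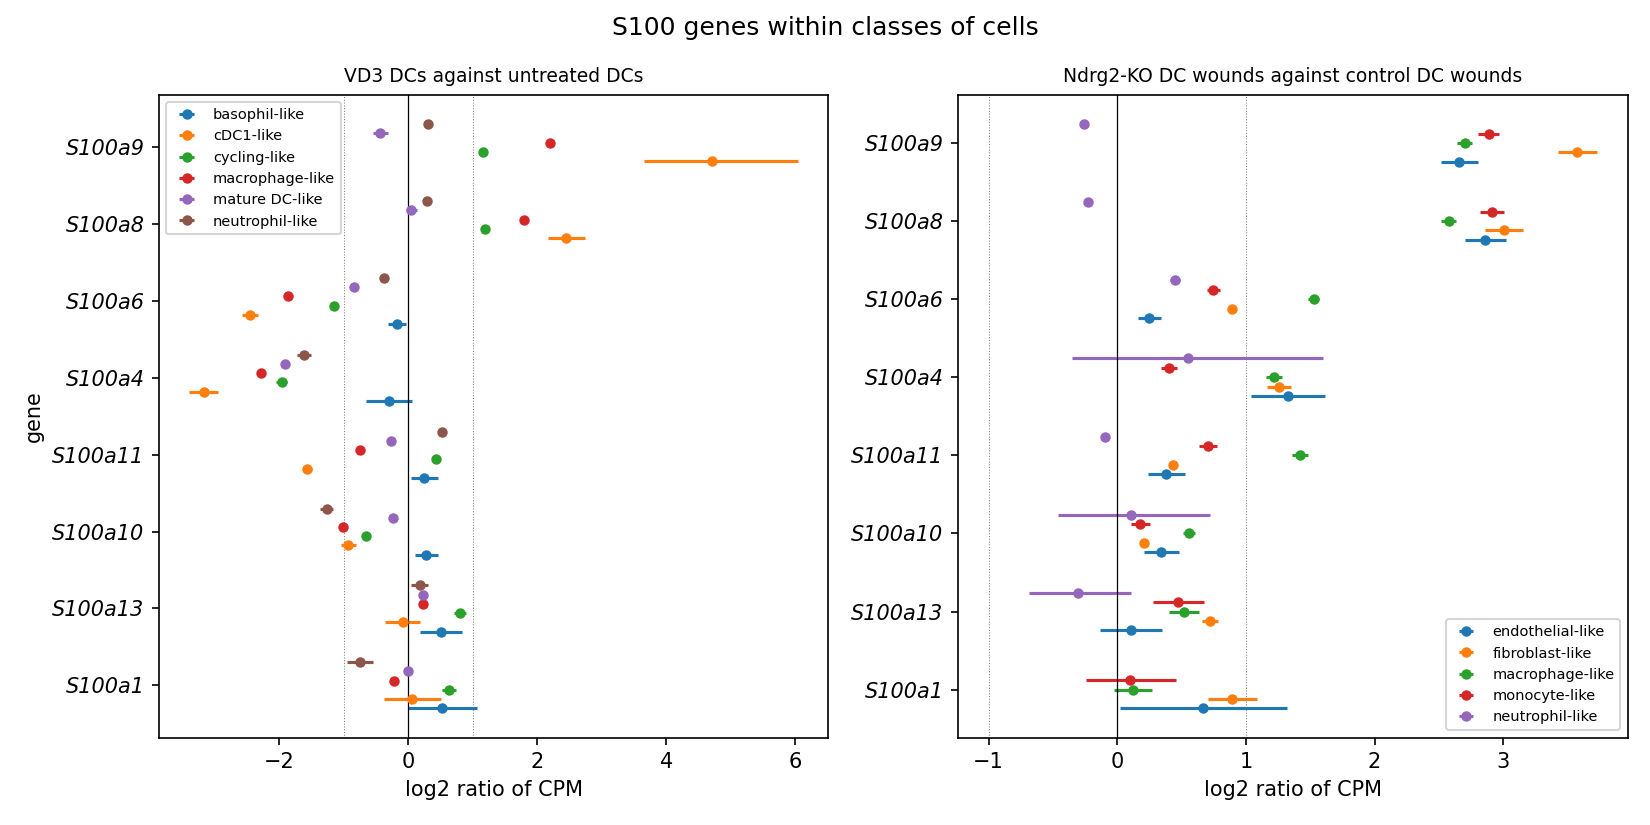
Log2 ratios of the S100 genes by cell class, for VD3 DCs against untreated DCs and for Ndrg2-KO DC wounds against control DC wounds, with 95% intervals and dotted lines at 2-fold. S100a4 lies left of 0 in the culture classes drawn, with an interval that spans 0 in basophil-like cells, and S100a8 and S100a9 lie right of 0 in wound classes other than neutrophil-like cells.

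Free RNA, released by broken cells and caught in droplets of other cells, can add UMIs of abundant genes to cells that do not make them. Shares of cells with S100a8 in a class not known for the pair are given for comparison, whatever the source of those UMIs, which was not tested. Fibroblast-like cells of wounds, thinned to 1000 UMIs, had an S100a8 UMI in 0.853% of cells with control DCs, 6.70% with Ndrg2-KO DCs and 5.57% with blank hydrogel. Unthinned, at medians of 30029, 26709 and 28010 UMIs per cell, the shares were 17.3%, 50.8% and 48.3%. In wound cluster 6, thinned, S100a8 was seen in 0 of 129 cells with control DCs, which allows a share of up to 2.82%, and in 12.2% with Ndrg2-KO DCs. Neutrophil-like cells, at medians of 3279, 2926 and 3359 UMIs, had thinned shares of 97.1%, 96.9% and 97.1%. The neutrophil share was thus far above that of fibroblast-like cells in each wound library. Thinned shares in macrophage-like cells were 6.73%, 28.7% and 14.8%, and in monocyte-like cells 7%, 17.9% and 14.9%. These lay above the fibroblast-like shares of the same library and, like them, were lowest in control DC wounds, which had the smallest share of neutrophil-like cells.

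In cultures the class used for comparison was mature DC-like cells. Thinned to 2000 UMIs, S100a8 was seen in 4.55%, 4.89% and 0.914% of them in untreated, VD3 and Ndrg2-KO DCs. Premature DC-like cells of the Ndrg2-KO culture stood at 6.45%, macrophage-like cells at 18.5%, 25.2% and 48.5%, and neutrophil-like cells at 84.8% and 81.6% in untreated and VD3 DCs. S100a9 was seen in 44.6% and 41.8% of those neutrophil-like cells. Culture neutrophil-like cells therefore had S100a8 more often than S100a9.

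The ratio of S100a8 to S100a9 UMIs was compared between classes of each library. In wound neutrophil-like cells 0.795 S100a8 UMIs were counted per S100a9 UMI with control DCs, 0.811 with Ndrg2-KO DCs and 0.818 with blank hydrogel. Other classes ranged from 0.391 (0.159 to 0.878), on few UMIs in cluster 6, to 1.10 with control DCs, from 0.739 to 0.946 with Ndrg2-KO DCs and from 0.719 to 0.952 with blank hydrogel. In Ndrg2-KO DC wounds, monocyte-like cells at 0.800 (0.782 to 0.819) overlapped the neutrophil-like ratio, while macrophage-like cells at 0.946 (0.932 to 0.960) lay above it and fibroblast-like cells at 0.739 (0.705 to 0.776) below it. In control DC wounds, macrophage-like cells at 1.03 (0.973 to 1.09) and fibroblast-like cells at 1.10 (0.955 to 1.26) lay above the neutrophil-like ratio, and monocyte-like cells at 0.787 (0.723 to 0.856) and endothelial-like cells at 0.815 (0.711 to 0.935) overlapped it. In blank hydrogel wounds, monocyte-like cells at 0.901 (0.872 to 0.932), fibroblast-like cells at 0.890 (0.840 to 0.943) and macrophage-like cells at 0.952 (0.921 to 0.983) lay above the neutrophil-like ratio. Keratinocyte-like cells at 0.759 (0.709 to 0.812) lay below it there, and endothelial-like cells at 0.719 (0.607 to 0.851) overlapped it. These intervals cover counting error, while few cells held most UMIs of the pair in these classes. The culture ratios were 1.66 and 1.65 in neutrophil-like cells of untreated and VD3 DCs, and S100a8 was the more abundant gene there. Other culture classes ranged from 1.17 to 16.6 in untreated, from 1.38 to 5.29 in VD3 and from 1.62 to 4.33 in Ndrg2-KO DCs. The 16.6 belonged to cDC1-like cells with 7 S100a9 UMIs, and the 4.33 (3.98 to 4.71) to premature DC-like cells.

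**Figure D4:**
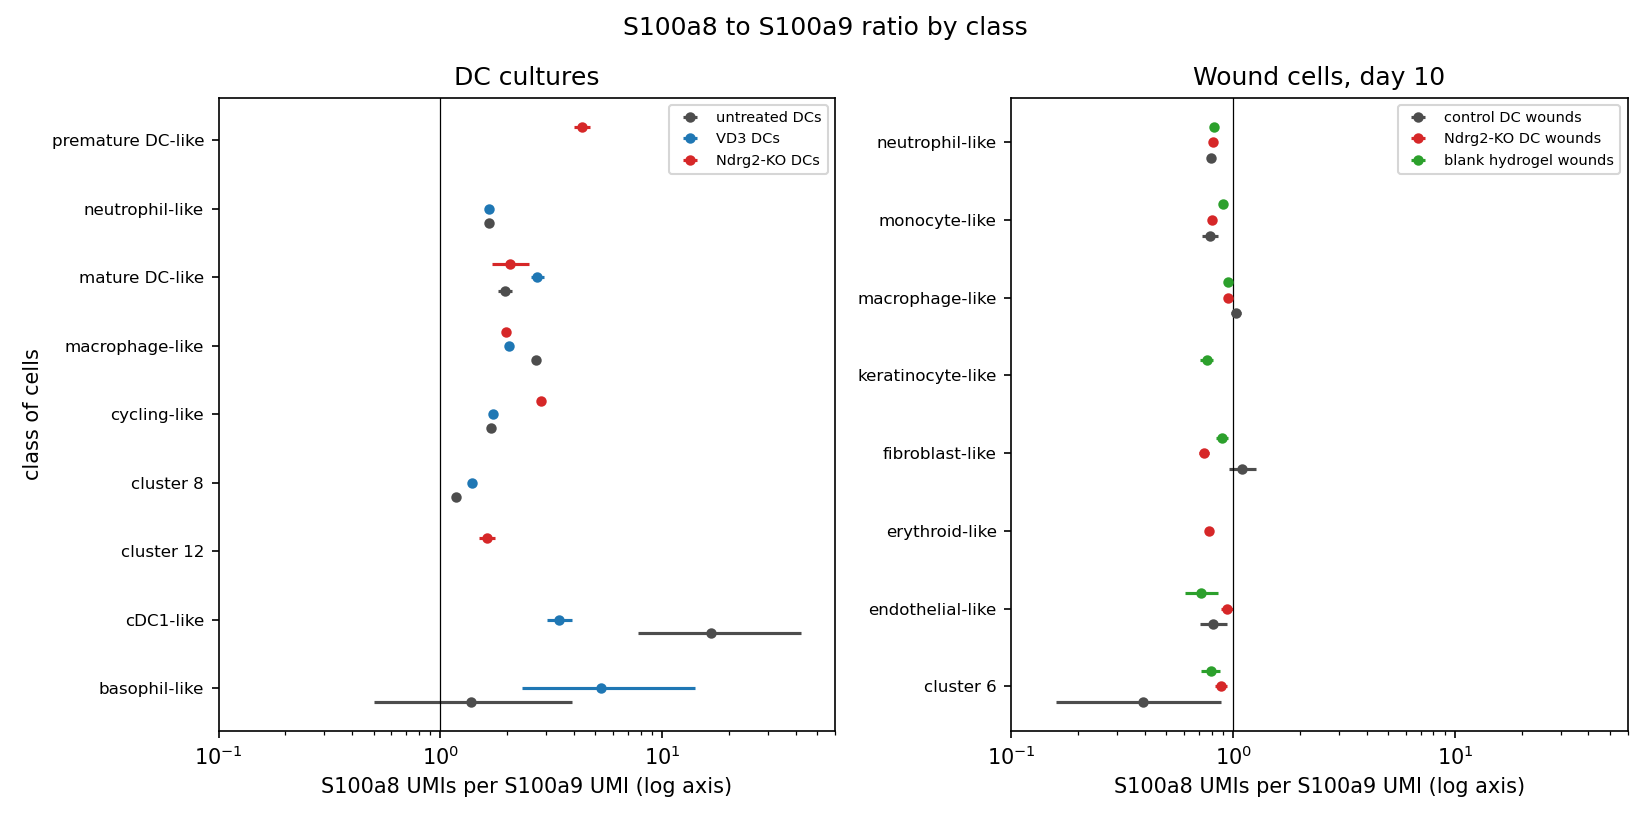
S100a8 UMIs per S100a9 UMI (log axis) in each cell class and library with at least 50 cells, with exact 95% intervals and a line at 1. Wound neutrophil-like cells lie between 0.795 and 0.818 and culture neutrophil-like cells at 1.65 and 1.66.

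The spread within a class was also uneven. Outside neutrophil-like cells the median sum of S100a8 and S100a9 UMIs per cell was 0 in each of 5 classes of control DC wounds and between 1 and 178 in Ndrg2-KO DC wounds. The 178 belonged to erythroid-like cells, and neutrophil-like cells had medians of 322, 265 and 299 in control, Ndrg2-KO and blank wounds. The 5% of cells with most UMIs of the pair, a share chosen after seeing the data, held 79.7% of them in fibroblast-like, 92.8% in macrophage-like and 97.0% in monocyte-like cells of control DC wounds. In Ndrg2-KO DC wounds the same share held 87.4%, 72.0% and 77.5%, against 21% in neutrophil-like cells. Most UMIs of the pair in these classes thus sat in few cells, and doublets were addressed only by leaving out the highest doublet scores.

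A panel of 8 other neutrophil genes, namely Retnlg, Csf3r, Cxcr2, Cd177, Mmp8, Camp, Ngp and Ltf, was set beside the pair. Its summed level was 316, 314 and 463 CPM in untreated, VD3 and Ndrg2-KO DCs and 379.8, 920.3 and 442 CPM in control DC, Ndrg2-KO DC and blank hydrogel wounds, with 0 of 8 genes at 0 in any library. Mmp8 was the most abundant in untreated and Ndrg2-KO DCs, Ngp in VD3 DCs, Retnlg in control DC and Ndrg2-KO DC wounds and Csf3r in blank hydrogel wounds. Per panel UMI, neutrophil-like cells of Ndrg2-KO DC wounds had 15.7 S100a9 UMIs, erythroid-like cells 15.7, monocyte-like cells 14.8, fibroblast-like cells 13.6, endothelial-like cells 8.04 and macrophage-like cells 7.71. Without Mmp8, left out after seeing the data, macrophage-like cells had 13.4 against 16.0 in neutrophil-like cells. The gap stayed wide without Mmp8 in the other wounds, at 4.71 against 12.8 with control DCs and 9.77 against 28.7 with blank hydrogel. With Mmp8, the ratio in control DC wounds was 12.4 in neutrophil-like, 7.94 in fibroblast-like, 3.85 in monocyte-like and 2.96 in macrophage-like cells. In blank hydrogel wounds it was 27.2, 15.4, 13.1 and 4.97 in the same classes. In premature DC-like cells the ratio was 0.0178, with Mmp8, a collagenase gene, giving 99.2% of the panel. Mmp8 gave 91.1% of the panel in untreated cycling-like cells, so the panel did not mark neutrophils alone in cultures. Culture neutrophil-like cells had ratios of 6.23 in untreated and 5.57 in VD3 DCs. Other classes lay on either side, from 0.32 to 12.3 in untreated and from 0.35 to 35.5 in VD3 DCs. The 12.3 belonged to cluster 8 and the 35.5 to cycling-like cells. Without Mmp8, untreated cycling-like cells had 64.6 against 9.39 in neutrophil-like cells. How much of the S100a8 and S100a9 outside neutrophil-like cells came from free RNA was not tested further.

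Binding partners and receptors of S100 proteins, and factors and cargo tied to them, formed a list of 19 genes. With vitamin D3, 1 of 19 tested was at least 2-fold higher and 5 were lower, with a median log2 ratio of -0.39, beside 2.99% and 6.02% of all tested genes. The lower genes were the annexins Anxa1 at -1.04 and Anxa2 at -1.54, Ahnak, a large membrane-scaffold gene bound by S100a10, at -1.05, the scavenger receptor Cd36 at -1.56 and the myeloid factor Cebpa at -1.61. Il1a was higher at 1.24. Anxa2, the main partner of S100a10, was thus lower in the same culture in which S100a10 stood at -0.57.

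In Ndrg2-KO against untreated DCs 4 of 18 tested list genes were higher and 1 lower, beside 8.26% and 6.9% of all tested genes. Cd36 at 3.02, Cd14, the coreceptor of Tlr4, at 2.01, Anxa1 at 1.28 and Il1a at 1.05 were higher. Fgf1, the growth factor that S100a13 helps to export, was lower at -1.46. Against VD3 DCs 7 of 18 tested genes were higher, among them Cd36 at 4.58 and Anxa1 at 2.32, and 1, Ager, was lower at -1.19, beside 11.3% and 6.69% of all tested genes. Receptors of the calprotectin pair thus did not move as one. In Ndrg2-KO DC wounds 3 of 17 tested genes were higher than in control DC wounds, Il1a at 3.29, Cd14 at 1.45 and the granulocyte factor Cebpe at 1.20, and 0 were lower, beside 3.83% and 3.97% of all tested genes. In blank hydrogel wounds 2 of 17 were higher, Il1a at 1.32 and Cebpe at 1.26, and 0 were lower, beside 2.97% and 2.65% of all tested genes. The list medians were 0.21, 0.53, 0.42 and 0.38 in these 4 comparisons.

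The 9 S100 genes outside the members were scarce in cultures. Their summed level was 1.94, 0.730 and 1.07 CPM in untreated, VD3 and Ndrg2-KO DCs and 92.9, 97.8 and 75.2 CPM in control DC, Ndrg2-KO DC and blank hydrogel wounds. S100a16 made most of the wound sum, at 82.5, 89.5 and 53.0 CPM, above the member S100a1 in each wound library. S100a3, known from hair, stood at 1.04, 1.24 and 10.8 CPM in the wounds, and the blank hydrogel library stood apart. In each wound library 5 of the 9 were under 1 CPM.

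Patterns over the 39 groups of class and library were compared with those of 6591 genes by Pearson's r of log CPM, as a description. The groups share libraries and differ in depth, so they are not independent. S100a8 was most like S100a9, with an r of 0.978, then Gm5483 at 0.957 and Stfa2l1 at 0.904, both of the stefin A group. S100a9 was next most like Gm5483 at 0.932 and Stfa2l1 at 0.921. S100a4 was most like Fam96b at 0.863 and S100a10 at 0.859, and S100a10 most like Selenow at 0.940 and Efr3a at 0.934. S100a1 was most like Echs1 at 0.929, then Sdhd and Anxa4, both at 0.924. S100a13 was most like Krtcap2 at 0.908, S100a11 most like Rps6ka2 at 0.726 and S100a6 most like Qsox1 at 0.687. Among the members, S100a10 and S100a13 reached 0.858, while S100a8 and S100a10 gave -0.683 and S100a9 and S100a10 gave -0.686. S100a6 and S100a11 thus had the least close likenesses among the members.

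All 8 members lie on chromosome 3 of GRCm38 within 3053610 bases, at chr3:90511034-93564643 in GENCODE M21. S100a1 (ENSMUSG00000044080, chr3:90511034-90514392) and S100a13 (ENSMUSG00000042312, chr3:90514435-90524581) are neighbours on opposite strands. S100a4 (ENSMUSG00000001020, chr3:90603771-90606045) and S100a6 (ENSMUSG00000001025, chr3:90612882-90624181) lie further along, with S100a5 between them. S100a8 (ENSMUSG00000056054, chr3:90668978-90670035, plus strand) and S100a9 (ENSMUSG00000056071, chr3:90692632-90695721, minus strand) lie beyond S100a7a. S100a11 (ENSMUSG00000027907, chr3:93520488-93526287) and S100a10 (ENSMUSG00000041959, chr3:93555080-93564643) lie apart from the others. Neighbours in position were neighbours in pattern for S100a8 and S100a9, whereas S100a10 and S100a11 stood far apart in wound neutrophil-like cells. The model Gm42674 overlaps S100a4 on the same strand.

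RefSeq promoters, the 250 bases before the start in GRCm38.p6, were found for 7 of 8 members and not for S100a10. The letters TTGCNNAA, a C/EBP motif, were searched on both strands and occur in 9.57% of 32817 promoters. The AP-1 letters TGANTCA occur in 6.75%. S100a9 held 1 C/EBP match and S100a8 held 0 of either motif in these windows, while S100a11 held 2 AP-1 matches. As the only member window found with a C/EBP match, the S100a9 window (chr3:90695722-90695971, minus strand) is shown, with the match in capitals. Whether this match bears on the levels was not tested. The RefSeq window of S100a8 runs past the gene's start in GENCODE and is not shown.
S100a9: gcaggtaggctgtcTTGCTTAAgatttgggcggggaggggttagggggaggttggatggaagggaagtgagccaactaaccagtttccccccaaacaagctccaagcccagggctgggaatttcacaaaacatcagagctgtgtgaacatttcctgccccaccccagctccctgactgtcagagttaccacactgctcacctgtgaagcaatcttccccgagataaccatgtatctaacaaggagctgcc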

How the data were processed

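The authors deposited 10x 3′ single-cell data as UMI counts (unique molecular identifiers) for 6 libraries, 3 of DC cultures and 3 of wounds, 1 per condition. The file headers name Cell Ranger 3.1.0 for cultures and 6.0.0 for wounds; the notes list mm9 where the paper gives mm10, and 99.6% of gene IDs matched GENCODE M21. The members and the gene lists were chosen with earlier results of these data known, and named genes were the members, the listed partners and S100 genes, and the genes with the highest r. Counts were summed per library and class and divided by all UMIs. Levels carry exact Poisson and ratios exact conditional binomial 95% intervals. No p-values are given, as each condition has a single library. Cells were clustered per set with Seurat 5.3.0 in R 4.3.3 (scale 10000, 2000 variable genes, 15 principal components, 15 neighbours, resolution 0.5) and named from fixed marker lists (at least 50 CPM and 2-fold). Patterns used a pseudocount of 10 CPM and genes reaching 50 CPM. Scrublet in scanpy 1.11.5 scored doublets; it called few, so the highest 6% of scores were left out as an alternative. Other work used Python 3.11.15, NumPy 2.4.6, pandas 2.3.3, SciPy 1.17.1 and matplotlib 3.10.9. Depth was 29675507 to 143627482 UMIs per library. Alternatives changed cell filters, scaling, weighting, the fold, the UMI minimum, thinning depth, clustering and the cells left out. Chosen after seeing the data were the within-class comparisons, the panel without Mmp8, the top share of cells and the setting without shallow clusters. Removal of free RNA by a model was not run, since the matrices hold called cells alone.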

Additional observations from a re-analysis of the deposited data

Results flagged for a closer look

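The results below moved in opposite directions between cell groups under 1 contrast, with 95% intervals wholly past 2-fold on either side. The cycling-like, mature DC-like and macrophage-like classes joined different clusters in each culture, so their ratios compare clusters as well as cultures. The difference between the groups was not tested, and each value comes from 1 library against 1 library. In VD3 against untreated DCs the log2 ratio of S100a8 was 2.45 in cDC1-like, 1.18 in cycling-like and 1.79 in macrophage-like cells. It was -2.48 in cluster 8, the cluster with early granule genes. S100a9 gave 4.72, 1.16 and 2.19 in the same named classes and -2.72 in cluster 8. Cluster 8 held different mixes of cells, with a median pair sum of 2509 UMIs in its untreated and 2 UMIs in its VD3 cells. Its granule genes Ngp and Camp gave 5821 and 1628 UMIs in 98 untreated cells, and 7046 and 1442 UMIs in 1081 VD3 cells. The cDC1-like ratio of S100a9 rests on 7 UMIs in untreated DCs, and without the highest 6% of doublet scores S100a8 in VD3 cDC1-like cells was 59.0 CPM in place of 579 CPM. In cycling-like cells the ranges of S100a8 under alternatives overlapped, at 867 to 4941 CPM in untreated and 3459 to 7909 CPM in VD3 DCs.

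In Ndrg2-KO against untreated DCs the log2 ratio of S100a8 was 2.07 in macrophage-like cells, -3.33 in cycling-like cells and -2.06 in mature DC-like cells. S100a9 gave 2.51, -4.08 and -2.14 in these classes. The macrophage-like value depends on the clustering, since S100a8 in that class of the Ndrg2-KO culture was 1559 CPM, and 38.8 CPM with the library clustered alone, below the 372 CPM of the untreated class. S100a8 in mature DC-like cells ranged over alternatives from 38.6 to 135 CPM in untreated and from 9.71 to 71.8 CPM in Ndrg2-KO DCs. These ranges overlapped, so the mature DC-like value depends on the settings too.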

How the results depend on the processing

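Counts of members past 2-fold changed as follows, and the cause was not tested. In VD3 against untreated DCs the lower count went from 2 to 1 with cells under 5% mitochondrial UMIs. In Ndrg2-KO against VD3 DCs the higher count went from 0 to 1 as a mean over cells, without neutrophil-like cells and without shallow clusters (chosen after seeing the data), and to 3 at 1.5-fold. In Ndrg2-KO against untreated DCs the higher count went from 0 to 1 at 1.5-fold, and the lower count from 3 to 2 with median-ratio scaling and as a mean over cells. In Ndrg2-KO DC wounds the higher count went from 2 to 0 as a mean over cells, to 3 without neutrophil-like cells and to 5 at 1.5-fold. In blank hydrogel wounds it went from 3 to 0 as a mean over cells and to 4 at 1.5-fold. No called log2 ratio between whole libraries changed its sign under the alternatives run, and ratios within classes were not recomputed. Over those alternatives S100a8 ranged from -3.95 to -2.93 in Ndrg2-KO against untreated DCs, and from 0.96 to 2.81 in Ndrg2-KO against control DC wounds. S100a4 ranged from -2.04 to -1.90 in VD3 against untreated DCs.

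Of the log2 ratios under alternatives, 219 moved beyond their counting interval and 181 did not. Class levels moved in 463 cases and stayed within the interval in 681. The levels of S100a8 and S100a9 outside neutrophil-like cells were among the least stable, as in macrophage-like Ndrg2-KO DCs, where S100a8 fell to 38.8 CPM, under the 186 to 372 CPM of that class in untreated DCs. They ran from 20.2 to 1060 CPM for S100a8 in monocyte-like cells of control DC wounds. Few UMIs of S100a1, S100a4 and S100a10 were counted in wound neutrophil-like cells, so their ratios there have wide intervals. Cells of 5 mice in a wound library cannot be assigned to a mouse, and the intervals say nothing of variation between mice or cultures.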
